A study of Rattus norvegicus with 19 samples.

Results

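The fetal program and hypertrophy genes are sarcomere, signal and stress genes that the heart uses before birth or under load. The 9 genes described here were taken by symbol from the count files: Nppb, Myh6, Myh7, Acta1, Actc1, Tnni1, Tnni3, Ankrd1 and Xirp2. All 9 were found among 17455 genes, and all 9 passed the filter on low counts that left 12388 genes for testing. In the rat ventricle the embryonic heart relies on the slow myosin heavy chain and on slow skeletal troponin I, and after birth these give way to the fast myosin heavy chain and to cardiac troponin I. Sustained pressure load is known to bring part of the early pattern back, with more natriuretic peptide, more slow myosin and more skeletal actin, and such genes are therefore widely used as markers of pathological hypertrophy. Load-sensing genes of the sarcomere and intercalated disc often move with them.

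RNA was sequenced from rat hearts in a model of heart failure with preserved ejection fraction (HFpEF), a form of heart failure in which the ventricle empties well but fills poorly. The animals were Sprague-Dawley rats, 24 weeks of age at the start, and the model combined L-NAME, an inhibitor of nitric oxide synthases, at 0.5 g/L in the drinking water with a diet giving 60% of kilocalories from lard. The comparisons asked what the model did to the heart at week 5 and at week 9 and what drug treatment changed. The 19 libraries formed 7 groups, each named by replicate number.

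The control 5w group (n = 3) and the control 9w group (n = 3) were kept on normal chow without L-NAME, as the paper states, and were taken at week 5 and week 9. The HFpEF group (n = 3) was taken at week 5, after 5 weeks on L-NAME and the high-fat diet. The other 4 groups had the same 5 weeks of induction and then 4 weeks of daily gavage, and were taken at week 9. Of these, the untreated group (n = 3) received the saline vehicle, the EMPA group (n = 2) received empagliflozin, an inhibitor of the renal sodium-glucose cotransporter, at 0.35 g/kg per day, the PFD group (n = 2) received pirfenidone, an antifibrotic drug, at 0.3 g/kg per day, and the EMPA + PFD group (n = 3) received both. The labels describe the tissue only as heart, give every library as male and number the libraries as biological replicates, while the deposited protocol speaks of equal numbers of male and female rats for the whole study. The methods of the study name left ventricles and males as the source of the RNA. Its methods give 5 weeks of induction, but its discussion speaks of 9 weeks. Whether L-NAME and the diet went on during the gavage is therefore unclear. Library totals ran from 7430539 to 13017754 counts, and levels are given below as CPM, counts scaled to a common library size and composition.

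Several libraries stood apart from the rest of their group in genes outside the list. The 6 atrial markers, all found in the files, summed to 5351, 242 and 23708 CPM in control 9w and to 174, 15065 and 572 CPM in untreated replicates 1, 2 and 3. Control 9w replicates 1 and 3 and untreated replicate 2 held 1387, 6975 and 6378 counts of Sln, the atrial regulator of the calcium pump, whereas no other library held more than 49. These 3 libraries are called rich in atrial markers below, by at least 1000 counts of both Sln and Myl4 and not by the sum. The sums were 3485, 6640 and 5098 CPM in control 5w, 2495, 365 and 2195 CPM in HFpEF and 861 and 5433 CPM in EMPA, so that control 5w replicate 2 and EMPA replicate 2 had higher sums than control 9w replicate 1. Nppa was the most abundant atrial marker in these 5 libraries, and none of the 6 markers was at 0 in any library. Nppa is also one of the other fetal and load-responsive genes counted below, so the sum need not reflect atrial tissue alone. Between control 5w and HFpEF, Nppa and Myl7 were lower in every HFpEF library, while Myl4, Sln, Bmp10 and Dkk3 overlapped.

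The fibroblast markers, 6 of 6 found, summed to 4430, 40846 and 32902 CPM in control 5w and to 15997, 9471 and 11806 CPM in HFpEF. Control 5w replicates 2 and 3 were thus far above replicate 1 and above every other library, with Col3a1 the most abundant marker in both and no marker at 0. The 8 ventricular markers summed to 36044, 17797 and 20073 CPM in control 5w, to 7698, 13462 and 19902 CPM in HFpEF and to 31357, 9933 and 29763 CPM in untreated hearts, so HFpEF replicate 1 and untreated replicate 2 were low. In control 9w they summed to 19869, 25105 and 19283 CPM and in EMPA + PFD to 36763, 40704 and 32310 CPM, without overlap. Tnnt2 led this list, and none of its markers was at 0. In whole tissue, fewer cardiomyocytes and less RNA per cardiomyocyte cannot be told apart.

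The 5 endothelial markers, all found, summed to 1368, 1182 and 1354 CPM in control 5w, 1315, 2605 and 2198 CPM in HFpEF, 2935, 2927 and 2544 CPM in control 9w and 2300, 2663 and 2483 CPM in untreated hearts. They were thus higher in control 9w than in control 5w in every library. At 1587, 1435 and 1537 CPM in EMPA + PFD and 1898 and 2014 CPM in PFD they were below every untreated library, and in EMPA they were 2307 and 1778 CPM. Kdr, Vwf, Tie1 or Pecam1 was the most abundant of them, and none was at 0.

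The 5 blood markers, all found and led by Hbb, summed to 1749, 1397 and 3884 CPM in HFpEF, 1491, 1787 and 1153 CPM in control 9w and 227, 181 and 297 CPM in untreated hearts, which were below these other groups in every library. They summed to 2252 and 438 CPM in EMPA and 692 and 837 CPM in PFD, above untreated hearts, and to 141, 469 and 207 CPM in EMPA + PFD, below control 9w. At most 1 of them was at 0 in a library. The leukocyte markers, 5 of 6 found and none of these at 0, summed to 190, 362 and 311 CPM in control 5w, 138, 119 and 125 CPM in control 9w, 163, 225 and 139 CPM in untreated hearts and 110 and 121 CPM in PFD, led by Csf1r or Ptprc. Control 9w was below control 5w, and both control 9w and PFD were below untreated hearts, in every library.

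The smooth muscle and pericyte markers, 5 of 5 found with none at 0, were led by Rgs5, Pdgfrb, Smtn or Myh11. They summed to 956, 991 and 946 CPM in control 5w and 1296, 1023 and 1064 CPM in HFpEF, and to 1005, 987 and 889 CPM in control 9w and 1129, 1072 and 1253 CPM in untreated hearts, so both disease groups were above their controls. At 907 and 1020 CPM in PFD and 984, 773 and 787 CPM in EMPA + PFD they were below untreated hearts. In EMPA they summed to 1071 and 1928 CPM, and replicate 2 was the highest of all 19 libraries. The 7 markers of fast skeletal muscle, all found and led by Tnnt3, summed to 44.8, 41.8 and 45.9 CPM in control 9w, 37.3, 74.1 and 44.9 CPM in untreated hearts, 34.0 and 35.7 CPM in PFD and 33.9, 21.9 and 31.5 CPM in EMPA + PFD. EMPA + PFD was below control 9w, and PFD and EMPA + PFD were below untreated hearts, with at most 2 of these markers at 0 in a library.

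The Y-linked gene Eif2s3y had 0 counts in HFpEF replicates 1 and 3, in all 3 untreated libraries and in both PFD libraries, although all are labelled male. HFpEF replicate 2 held 855 counts, and the control, EMPA and EMPA + PFD libraries held between 613 and 1321. Untreated hearts therefore differed in this gene from control 9w, EMPA and EMPA + PFD hearts in every library, and in those comparisons whatever these counts reflect cannot be told apart from group.

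A gene was called changed where edgeR gave a Benjamini-Hochberg adjusted p under 0.05 over all 12388 genes together with a fold change of at least 2. At week 5, HFpEF minus control 5w, 2 of the 9 genes were called, Actc1 and Tnni1, both lower, beside 8.69% of all tested genes (3.87% in a fit on these 2 groups alone). All 9 had negative log2 fold changes, with a median of -1.38 against 0.02 over all genes tested. For control 9w minus control 5w, 4 were called, Acta1, Actc1, Tnni1 and Xirp2, all lower, beside 14.7% of all genes (7.33% without the libraries rich in fibroblast markers), and the median of the 9 was -1.20 against -0.04. Voom with sample weights called 7 there, beside 21.9% of all genes, with Nppb, Myh7 and Ankrd1 added. Both comparisons share the control 5w libraries.

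For untreated minus control 9w none of the 9 was called by edgeR, beside 0.912% of all genes. There, 1 of the 9 had an unadjusted p under 0.05, beside 18.2% of all genes, DESeq2 called 1, Tnni1, beside 2.4%, and voom called 4, Actc1, Tnni1, Ankrd1 and Xirp2, beside 8.37%. The 113 genes called by edgeR became 21 or 7 without control 9w replicate 1 or 2, and 14, 412 or 28 without untreated replicate 1, 2 or 3. Untreated minus HFpEF likewise gave 0 of 9 by edgeR beside 0.194% of all genes, with 1 of the 9 at an unadjusted p under 0.05, beside 22.7%, 0 calls by DESeq2, beside 3.56%, and 1 by voom, Myh6, beside 8.69%. Here the 24 genes called by edgeR became 181, 14 or 9 without control 5w replicate 1, 2 or 3, 4, 259 or 10 without HFpEF replicate 1, 2 or 3, 8 without control 9w replicate 1, and 6, 931 or 6 without untreated replicate 1, 2 or 3. Without untreated replicate 2, 1 of the 9 was among them, Actc1. The medians of the 9 were 0.18 and 0.27 in these 2 comparisons.

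For EMPA + PFD minus untreated, 1 of 9 was called, Tnni1, which was higher, beside 3.82% of all genes. This share depended on single libraries: the 473 genes became 910, 83 or 210 without untreated replicate 1, 2 or 3 and 793, 59 or 159 without EMPA + PFD replicate 1, 2 or 3. They became 33 without the libraries rich in atrial markers and 5 of 11505 in a fit on these 2 groups alone.

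EMPA minus untreated gave 0 of 9 by edgeR beside 0.0404% of all genes, with 3 of the 9 at an unadjusted p under 0.05, beside 8.63% of all genes. Its 5 called genes became 9 or 11 without HFpEF replicate 1 or 2 and 15 without EMPA replicate 2. PFD minus untreated also gave 0 of 9 by edgeR beside 0.00807%, a single gene (0 to 2 over left-out libraries), with 2 of the 9 at an unadjusted p under 0.05, beside 5.21%. Neither DESeq2 nor voom called any of the 9 in either of these comparisons (0 calls each), beside 0.412% and 0.194% of all genes for EMPA and 0.0323% and 0.0404% for PFD. For EMPA + PFD minus control 9w, 1 of 9 was called, Actc1, which was higher, beside 12.1% of all genes (7.85% without EMPA + PFD replicate 2), and voom called 4, with Myh6, Acta1 and Xirp2 added, beside 15.8%. In both comparisons of EMPA + PFD the share of the 9 that was called is a single gene on small groups. In the one against control 9w the share was near that of all genes.

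**Figure D1:**
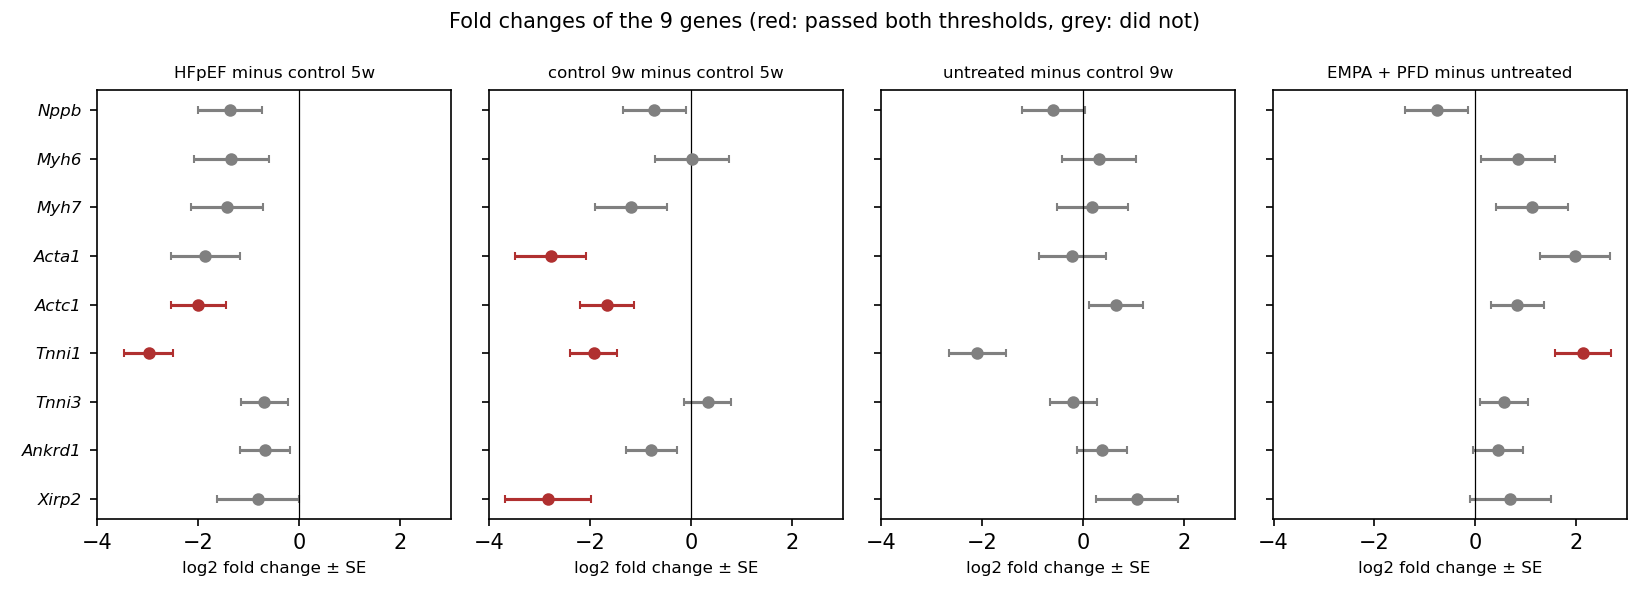
Log2 fold changes with SE from the edgeR fit for the 9 genes in 4 comparisons, with called genes in red and the others in grey. In the first panel all 9 points lie below 0, and Tnni1 at -2.98 lies farthest from 0.

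Nppb encodes the precursor of B-type natriuretic peptide, which stretched ventricular muscle secretes. Its level was 473, 517 and 492 CPM in control 5w replicates 1, 2 and 3 and 212, 77.0 and 283 CPM in the HFpEF libraries. Every HFpEF library lay below every control 5w library, but the HFpEF values were spread widely, and the difference was not called (log2 fold change -1.38 ± 0.63 (SE), adjusted p = 0.132). The sums of the atrial markers were also lower in every HFpEF library than in every control 5w library.

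At week 9, Nppb measured 184, 125 and 582 CPM in control 9w and 140, 205 and 248 CPM in untreated hearts. The groups overlapped, and control 9w replicate 3, the library with the most atrial markers, was the highest of all 19. The level was 185 and 492 CPM in the EMPA libraries, 532 and 114 CPM in the PFD libraries and 136, 139 and 75.7 CPM in the EMPA + PFD libraries. All 3 EMPA + PFD libraries lay below every untreated library, again without a call (log2 fold change -0.76 ± 0.63 (SE), adjusted p = 0.406), while the EMPA libraries overlapped untreated hearts (log2 fold change 0.78 ± 0.69 (SE), adjusted p = 0.824). Without EMPA replicate 2 the latter log2 fold change was -0.0937, of opposite sign, and without EMPA replicate 1 it was 1.32. For EMPA + PFD minus control 9w the value was also not past the threshold (log2 fold change -1.35 ± 0.63 (SE), adjusted p = 0.113). Without the libraries rich in atrial markers it was only -0.10, with only control 9w replicate 2 left in that group. Over single left-out libraries it ran from -1.71 to -0.41.

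In order of group means, Nppb ran from control 5w (494 ± 22.0 CPM, SD, n = 3) through EMPA, PFD, control 9w, untreated and HFpEF to EMPA + PFD (117 ± 35.5 CPM, SD, n = 3). Here and below, neighbours in such an order are said to differ beyond their spread where their means differ by more than the sum of their SDs, and none did for Nppb. Over the 19 libraries the log2 level of Nppb went with the log2 sum of the atrial markers (Pearson r = 0.78, Spearman rho = 0.77), given as a description of libraries that share groups. Nppa, itself a natriuretic peptide gene, made up most of this sum in many libraries, such as control 5w replicate 2 (5794 of 6640 CPM). The part of the atrial markers in the Nppb values was not tested.

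Myh6 encodes the fast alpha myosin heavy chain, the main motor of the adult rat ventricle, and Myh7 the slow beta chain of the fetal ventricle. The level of Myh6 was 21437, 4280 and 5367 CPM in control 5w and 824, 5542 and 5863 CPM in HFpEF. Control 5w replicate 1 was several times above its group and HFpEF replicate 1 was the lowest of all 19 libraries, and the groups overlapped (log2 fold change -1.35 ± 0.74 (SE), adjusted p = 0.207). With 1 library left out at a time this value ran from -1.72 to -0.23, nearest to 0 without control 5w replicate 1. The level of Myh7 was 9465, 11896 and 12274 CPM in control 5w and 3827, 1446 and 7192 CPM in HFpEF. All HFpEF libraries lay below all control 5w libraries, but the difference was not called (log2 fold change -1.43 ± 0.72 (SE), adjusted p = 0.164).

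At week 9 the Myh6 level was 9613, 10731 and 11270 CPM in control 9w and 19379, 7239 and 12557 CPM in untreated hearts, and the Myh7 level was 5114, 5300 and 4234 CPM and 5339, 866 and 10446 CPM. Both genes spread much more among untreated than among control hearts, with untreated replicate 2 the lowest for both. Against the HFpEF group at week 5, untreated hearts had a higher Myh6 value in every library, without a call by edgeR (log2 fold change 1.68 ± 0.75 (SE), adjusted p = 0.203) but with one by voom (1.51, adjusted p = 0.0387). The fibroblast markers were lower in every untreated library (3864, 8073 and 3643 CPM) than in HFpEF (15997, 9471 and 11806 CPM). Myh6 ran opposite to their sum over the 19 libraries (r = -0.640, rho = -0.665). The blood markers were lower as well (227, 181 and 297 CPM against 1749, 1397 and 3884 CPM). The part of both lists in the Myh6 values was not tested. Myh7 in control 9w was below control 5w in every library, also without a call by edgeR over all groups (log2 fold change -1.20 ± 0.71 (SE), adjusted p = 0.204), but it was called by voom (-1.26, adjusted p = 0.00403) and in a fit on these 2 groups alone (-1.17, adjusted p = 0.0131).

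Among treated hearts the Myh6 level was 4559 and 1707 CPM in EMPA, 13810 and 21389 CPM in PFD and 9191, 32560 and 28984 CPM in EMPA + PFD. Both EMPA libraries lay below all untreated libraries, and the difference was not called (log2 fold change -2.06 ± 0.89 (SE), adjusted p = 0.529). The Myh7 level was 10422 and 10734 CPM in EMPA, 11275 and 6442 CPM in PFD and 20537, 11283 and 4552 CPM in EMPA + PFD. The EMPA + PFD libraries overlapped untreated hearts in both Myh6 (log2 fold change 0.85 ± 0.74 (SE), adjusted p = 0.428) and Myh7 (log2 fold change 1.13 ± 0.71 (SE), adjusted p = 0.277), and for Myh7 the voom fit gave -0.0831, of opposite sign. With 1 library left out the values ran from 0.56 to 1.26 for Myh6 and from 0.54 to 1.99 for Myh7.

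By group mean, Myh6 was highest in EMPA + PFD (23578 ± 12588 CPM, SD, n = 3), followed by PFD, untreated, control 9w, control 5w, HFpEF and EMPA (3133 ± 2017 CPM, SD, n = 2). Myh7 ran from EMPA + PFD (12124 ± 8026 CPM, SD, n = 3) through control 5w, EMPA, PFD, untreated and control 9w to HFpEF (4155 ± 2887 CPM, SD, n = 3). In both orders no neighbours differed beyond this spread. Myh6 and Myh7 are neighbouring genes with nearly identical sequence, and how the counting treated reads that match both was not given in the sources used here, so both levels and their ratio are uncertain to that extent.

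The ratio of Myh7 to Myh6 counts is read here only between libraries, since gene lengths were not used. It was 0.442, 2.78 and 2.29 in control 5w and 4.64, 0.261 and 1.23 in HFpEF. Both groups held libraries on either side of 1, so they overlapped. At week 9 it was 0.532, 0.494 and 0.376 in control 9w and 0.276, 0.120 and 0.832 in untreated hearts. All of these lay below 1, and the untreated values surrounded those of the controls.

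Over both weeks the log2 ratio in disease minus control averaged -0.46, with -0.31 at week 5 and -0.62 at week 9. An exact permutation test within weeks, two-sided over 400 relabellings, gave p = 0.57, and 0.57 after adjustment over 3 ratios. The value was 0.0714 without HFpEF replicate 2 and 0.38 without control 5w replicates 2 and 3, so its sign depends on few libraries.

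The same ratio was 2.29 and 6.29 in EMPA, 0.816 and 0.301 in PFD and 2.23, 0.347 and 0.157 in EMPA + PFD. Both EMPA libraries and EMPA + PFD replicate 1 had more counts of Myh7 than of Myh6, while all other week 9 libraries had fewer. The mean log2 ratio of EMPA was 3.65 above that of untreated hearts, with no overlap, and is given as a value because so few libraries cannot reach the threshold in an exact test. Eif2s3y counts (676 and 789 in EMPA, 0 in every untreated library) also separated these groups. So did the blood markers (2252 and 438 CPM against 227, 181 and 297 CPM). Their part in this ratio and in the Myh6 levels of EMPA was not tested.

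**Figure D2:**
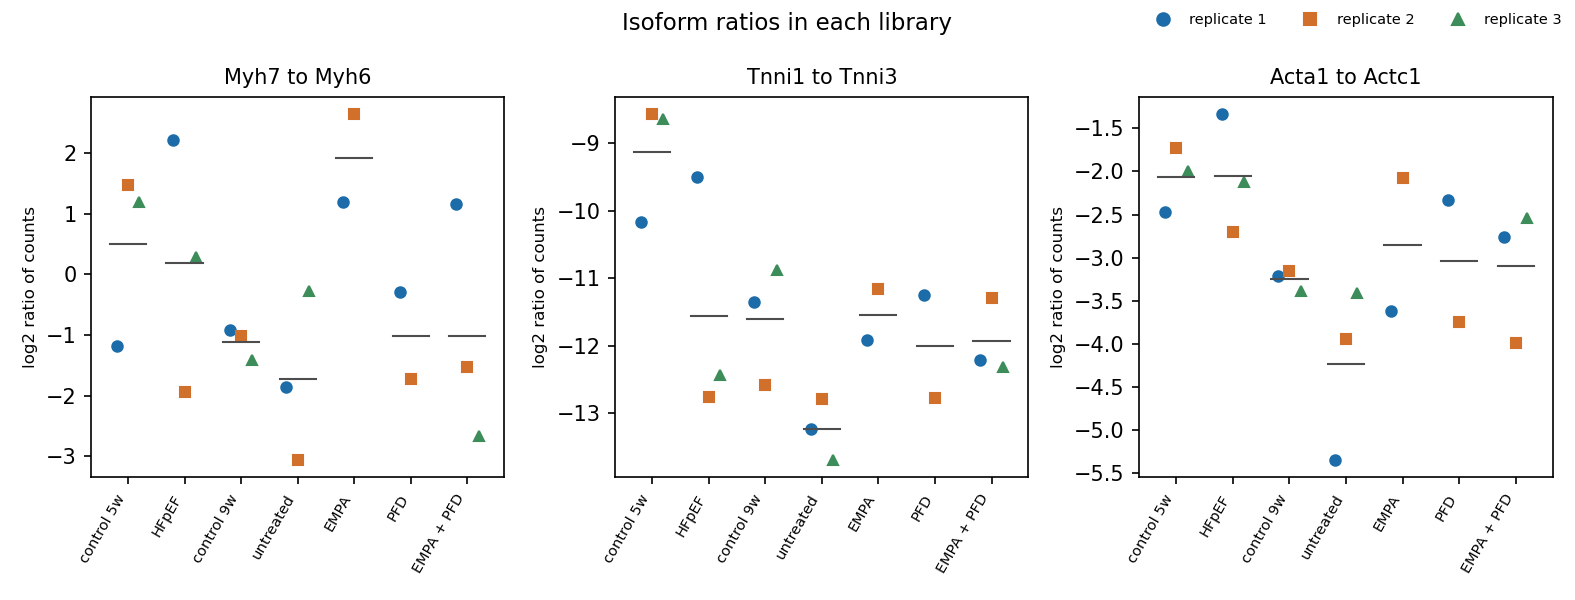
Log2 ratios of counts in each library by group for Myh7 to Myh6, Tnni1 to Tnni3 and Acta1 to Actc1, with bars at group means and symbols for replicate number. The untreated libraries lie lowest for Tnni1 to Tnni3, with a group mean of -13.23.

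Acta1 encodes skeletal alpha-actin and Actc1 cardiac alpha-actin, which share the thin filament of heart muscle and differ in few residues. Acta1 measured 4340, 3586 and 3148 CPM in control 5w, 1049, 369 and 1632 CPM in HFpEF and 488, 547 and 569 CPM in control 9w. Control 5w was above both other groups in every library, and the control 9w libraries lay close together. Acta1 fell in control 9w against control 5w (log2 fold change -2.79 ± 0.71 (SE), adjusted p = 0.0084), while the HFpEF difference was not called (log2 fold change -1.86 ± 0.69 (SE), adjusted p = 0.0674). The latter was called by DESeq2 (adjusted p = 0.0182), with a replicate block, and without untreated replicate 2 (adjusted p = 0.0383) or 3 (adjusted p = 0.0386). Without control 9w replicates 1 and 3 and untreated replicate 2, the libraries rich in atrial markers, the fall in control 9w was -2.75. It was no longer called there, with only control 9w replicate 2 left in that group. The endothelial markers rose without overlap between the same groups, from 1368, 1182 and 1354 CPM in control 5w to 2935, 2927 and 2544 CPM in control 9w, while the leukocyte markers fell (190, 362 and 311 CPM to 138, 119 and 125 CPM). Over the 19 libraries the log2 sum of the endothelial markers ran opposite to Acta1 (r = -0.763, rho = -0.804), and also to the other genes called in this comparison, Actc1 (r = -0.523, rho = -0.619), Tnni1 (r = -0.685, rho = -0.565) and Xirp2 (r = -0.703, rho = -0.74). The Schwann and nerve markers also rose without overlap, from 40.2, 25.6 and 24.9 CPM in control 5w to 83.6, 49.6 and 81.2 CPM in control 9w. The part of these marker lists in the 4 falls was not tested.

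Acta1 measured 291, 139 and 950 CPM in untreated hearts, 661 and 1854 CPM in EMPA, 2837 and 909 CPM in PFD and 2440, 884 and 2127 CPM in EMPA + PFD. Untreated replicate 3 stood above its group and overlapped EMPA replicate 1, PFD replicate 2 and EMPA + PFD replicate 2. None of the differences from untreated hearts was called for EMPA + PFD (log2 fold change 1.98 ± 0.69 (SE), adjusted p = 0.0684), EMPA (log2 fold change 1.45 ± 0.73 (SE), adjusted p = 0.613) or PFD (log2 fold change 2.03 ± 0.74 (SE), adjusted p = 0.786). The EMPA + PFD value was called by DESeq2 (adjusted p = 0.0151) and, at 3.09, without untreated replicate 3 (adjusted p = 0.0425). With 1 library left out the values ran from 0.52 to 2.55 for EMPA and from 0.98 to 3.12 for PFD.

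Untreated minus HFpEF was not called for Acta1 (log2 fold change -1.14 ± 0.67 (SE), adjusted p = 0.317), and with HFpEF replicate 2 as the only HFpEF library its sign was opposite (0.32), while single left-out libraries moved it from -2.23 to -0.63. EMPA + PFD minus control 9w was not called either (log2 fold change 1.76 ± 0.68 (SE), adjusted p = 0.0591), although every EMPA + PFD library was above every control 9w library. That value was called by DESeq2 (adjusted p = 0.0186) and by voom (adjusted p = 0.00709), and in a fit on these 2 groups alone (adjusted p = 0.00614). It was also called without HFpEF replicate 2 (adjusted p = 0.0447), untreated replicate 2 (adjusted p = 0.0348) or untreated replicate 3 (adjusted p = 0.0306).

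Actc1 measured 24118, 11864 and 12578 CPM in control 5w, 2640, 2410 and 7111 CPM in HFpEF and 4514, 4873 and 5945 CPM in control 9w. Every HFpEF and every control 9w library lay below every control 5w library. Actc1 fell in HFpEF (log2 fold change -2.00 ± 0.55 (SE), adjusted p = 0.0208) and in control 9w (log2 fold change -1.66 ± 0.54 (SE), adjusted p = 0.0277), both against control 5w. Over the 19 libraries Actc1 went with the sum of the ventricular markers (r = 0.851, rho = 0.83), which was 36044, 17797 and 20073 CPM in control 5w and 7698, 13462 and 19902 CPM in HFpEF, with overlap. Between these 2 groups the sum of the atrial markers fell without overlap (3485, 6640 and 5098 CPM to 2495, 365 and 2195 CPM). The markers of smooth muscle and pericytes rose (956, 991 and 946 CPM to 1296, 1023 and 1064 CPM). Those of Schwann cells and nerve rose as well (40.2, 25.6 and 24.9 CPM to 359, 40.6 and 65.4 CPM). The part of these lists in the fall of Actc1 was not tested. The HFpEF call was lost without control 5w replicate 1 (-1.59, adjusted p = 0.0731), HFpEF replicate 1 (-1.77, adjusted p = 0.0704) or HFpEF replicate 2 (-1.73, adjusted p = 0.0786), and in a fit on these 2 groups alone (-2.01, adjusted p = 0.0915). The control 9w call was lost without control 5w replicate 1 (-1.25, adjusted p = 0.0936), control 9w replicate 1 (-1.58, adjusted p = 0.0891) or control 9w replicate 2 (-1.63, adjusted p = 0.0885). It was also lost without the libraries rich in atrial markers (-1.73), with only control 9w replicate 2 left in that group. These values are log2 fold changes.

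Actc1 measured 11859, 2143 and 10082 CPM in untreated hearts, 8143 and 7828 CPM in EMPA, 14244 and 12246 CPM in PFD and 16508, 14086 and 12357 CPM in EMPA + PFD. Untreated replicate 2, which was low in ventricular markers, was the lowest of all 19 libraries, and all EMPA + PFD libraries were above all untreated ones without a call (log2 fold change 0.83 ± 0.53 (SE), adjusted p = 0.279). That value ran from 0.38 to 1.23 over left-out libraries. Actc1 rose in EMPA + PFD against control 9w (log2 fold change 1.49 ± 0.54 (SE), adjusted p = 0.0445), where the groups did not overlap. The ventricular markers moved with it, at 36763, 40704 and 32310 CPM in EMPA + PFD and 19869, 25105 and 19283 CPM in control 9w, while the endothelial markers moved the other way, at 1587, 1435 and 1537 CPM and 2935, 2927 and 2544 CPM, as did those of blood (141, 469 and 207 CPM and 1491, 1787 and 1153 CPM) and fast skeletal muscle (33.9, 21.9 and 31.5 CPM and 44.8, 41.8 and 45.9 CPM). All 4 lists separated these groups without overlap, and their part in the Actc1 values was not tested.

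The Actc1 call for EMPA + PFD minus control 9w was near the threshold: it was lost without any 1 of the control 9w, EMPA, PFD or EMPA + PFD libraries or of control 5w replicates 2 and 3, with log2 fold changes of 1.39 to 1.61 and adjusted p up to 0.125 over all 19 libraries left out in turn. It was also lost with no filter on low counts (log2 fold change 1.46, adjusted p = 0.0523). The same held without the libraries rich in atrial markers (log2 fold change 1.55), with only control 9w replicate 2 left in that group.

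The change in Actc1 with disease differed between the weeks. It fell at week 5 and was not called at week 9, and the test of the difference gave 2.65 ± 0.76 (SE, adjusted p = 0.0245), the only call among the 9 genes beside 12% of all genes (7.87% without control 9w replicate 2, 7.08% without untreated replicate 1 and 18.2% without untreated replicate 2). As 1 of 9 (11.1%), this is no more than the share of all genes. Voom called 5, Myh7, Acta1, Actc1, Ankrd1 and Xirp2, beside 20.7% of all genes. No count is given without the HFpEF libraries lacking Eif2s3y counts, since 1 HFpEF library was left. All 9 genes had a positive difference, from 0.49 to 2.65, and Acta1 was not called by edgeR (log2 fold change 1.64 ± 0.95 (SE), adjusted p = 0.229) but was by voom (1.79, adjusted p = 0.0473), with edgeR values from 0.55 to 2.16 over left-out libraries. The Actc1 call was lost without control 5w replicate 1, HFpEF replicate 1 or 2, control 9w replicate 1 or 2, or untreated replicate 1 or 3, and over all 19 libraries left out in turn the values ran from 2.23 to 3.33 with adjusted p up to 0.0753. The ventricular markers, which Actc1 followed (r = 0.851, rho = 0.83), summed to 7698, 13462 and 19902 CPM in HFpEF against 36044, 17797 and 20073 CPM in control 5w, and to 31357, 9933 and 29763 CPM in untreated hearts against 19869, 25105 and 19283 CPM in control 9w. They were thus lower in most HFpEF libraries and higher in untreated replicates 1 and 3 than in the controls of the same week, and their part in the difference was not tested. Eif2s3y counts separated untreated hearts from control 9w in every library, while at week 5 HFpEF replicate 2 held counts as the controls did. What these counts reflect cannot be told apart from disease at week 9, and its part in the difference was not tested. Without the libraries rich in atrial markers the Actc1 difference was 3.17, with only control 9w replicate 2 left in its group. Without those rich in fibroblast markers it was 3.23, with only control 5w replicate 1 left.

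The ratio of Acta1 to Actc1 counts was 0.180, 0.302 and 0.250 in control 5w, 0.398, 0.153 and 0.229 in HFpEF, 0.108, 0.112 and 0.0957 in control 9w and 0.0245, 0.0648 and 0.0942 in untreated hearts. Week 5 libraries were higher than week 9 libraries in both arms, and untreated replicate 1 was the lowest of the 19. The log2 ratio in disease minus control was 0.01 at week 5 and -0.99 at week 9, with a mean of -0.49, and the exact permutation test within weeks gave p = 0.26 (0.39 after adjustment over 3 ratios). In the drug groups the ratio was 0.0812 and 0.237 in EMPA, 0.199 and 0.0742 in PFD and 0.148, 0.0627 and 0.172 in EMPA + PFD, on both sides of untreated replicate 3. The coding sequences of the actins are very alike, and reads shared between them make this ratio uncertain.

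By group mean, Acta1 ran from control 5w (3691 ± 603 CPM, SD, n = 3) through PFD, EMPA + PFD, EMPA, HFpEF and control 9w to untreated hearts (460 ± 431 CPM, SD, n = 3). Actc1 ran from control 5w (16187 ± 6878 CPM, SD, n = 3) through EMPA + PFD, PFD, untreated, EMPA and control 9w to HFpEF (4054 ± 2650 CPM, SD, n = 3). Only EMPA and control 9w among the neighbours for Actc1 differed by more than the sum of their SDs, and none did for Acta1.

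**Figure D3:**
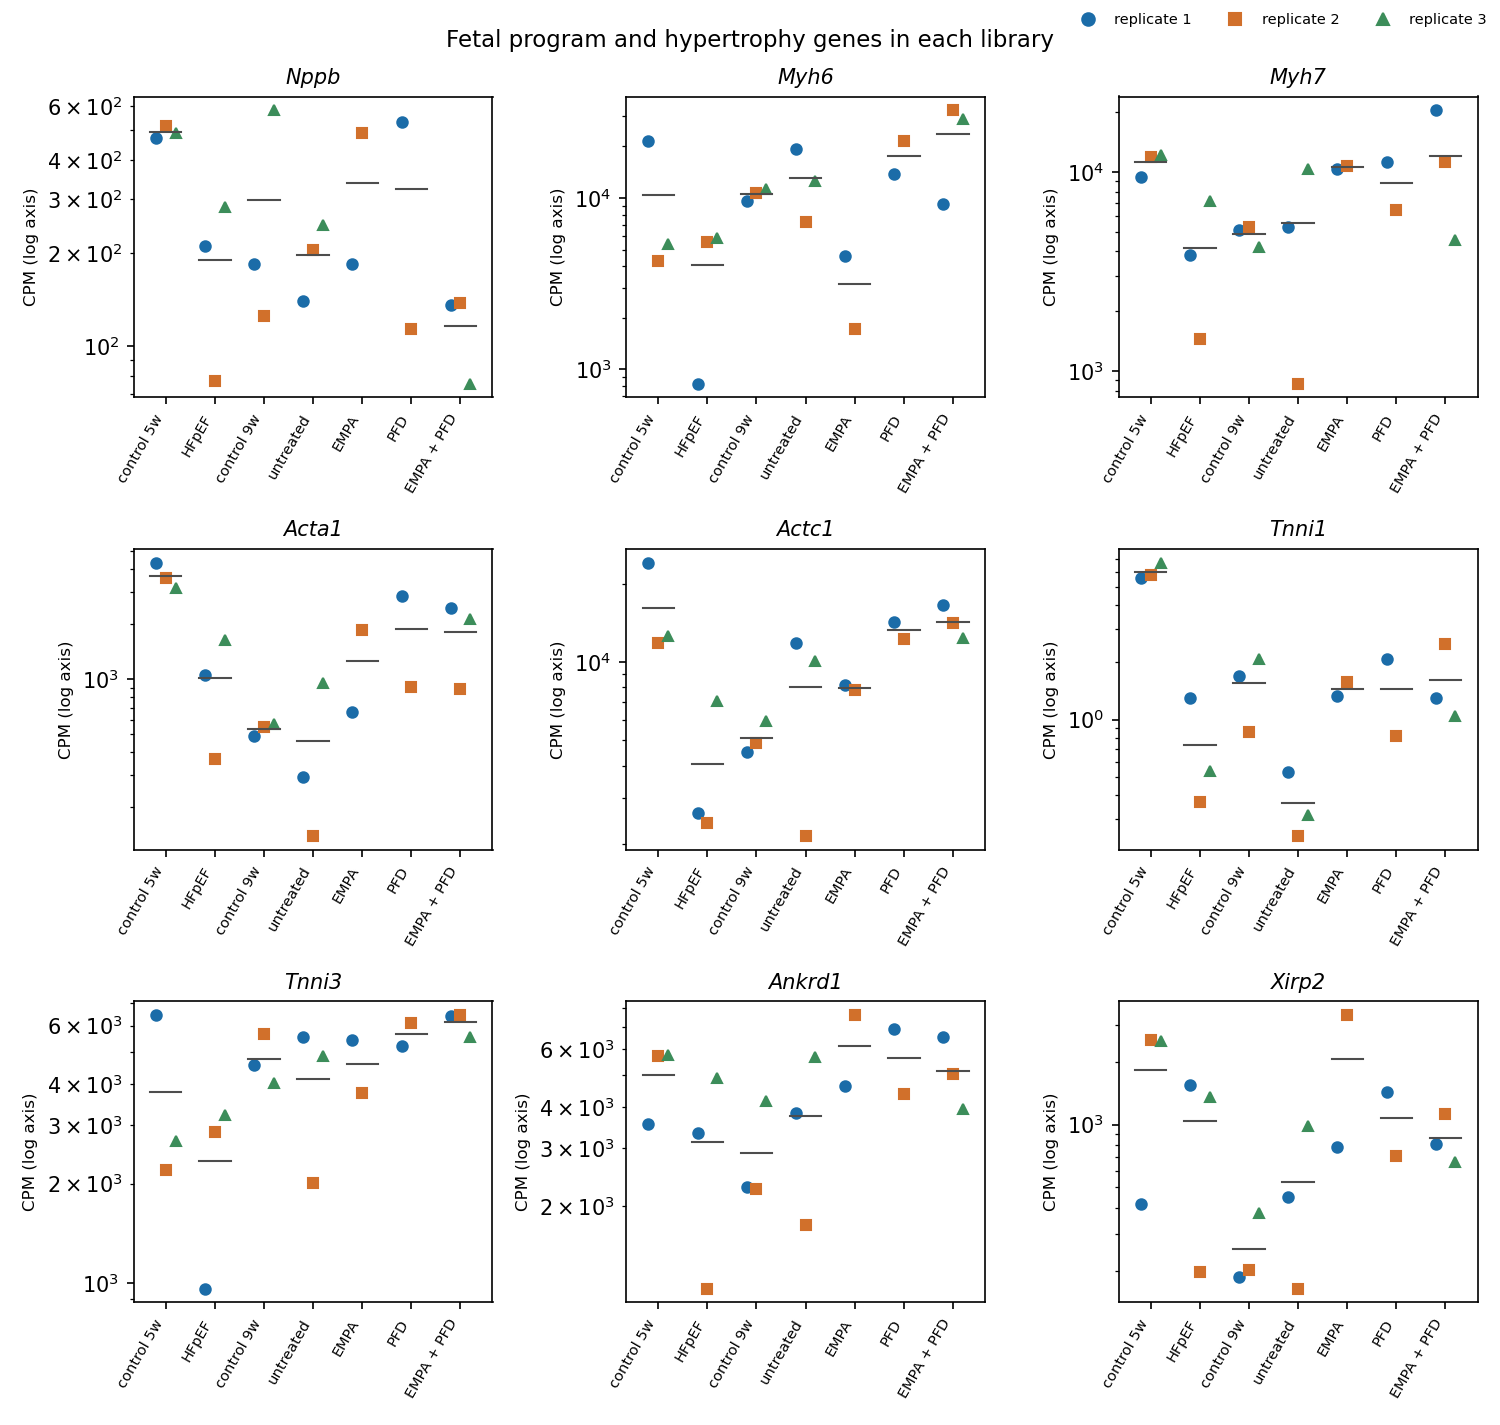
Level of each of the 9 genes in every library, in CPM on a log axis, by group, with a bar at each group mean and symbols for replicate number. Tnni1 is near 6 CPM in the 3 control 5w libraries, with a mean of 5.99 CPM, and lower in all others.

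Tnni1 encodes the slow skeletal troponin I of the fetal heart, and Tnni3 the cardiac troponin I that replaces it after birth. Tnni1 reads were few. The libraries held 59, 74 and 84 counts in control 5w, 18, 4 and 6 counts in HFpEF, 15, 7 and 21 counts in control 9w and 5, 3 and 3 counts in untreated hearts. All control 5w libraries were far above the rest, and each untreated library was below each control 9w library. At 3 to 5 counts the untreated libraries were at or just above the floor of 3 counts, so the size of a fold against them is set by few reads.

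In CPM, Tnni1 measured 5.56, 5.74 and 6.68 in control 5w and 1.29, 0.367 and 0.536 in HFpEF, and it fell (log2 fold change -2.98 ± 0.49 (SE), adjusted p = 0.0018). Every library left out in turn kept this call, with log2 fold changes from -3.69 to -2.67. The sum of the atrial markers fell without overlap between the same libraries, from 3485, 6640 and 5098 CPM in control 5w to 2495, 365 and 2195 CPM in HFpEF. Over the 19 libraries Tnni1 went with this sum (r = 0.414, rho = 0.484). HFpEF replicates 1 and 3 had 0 counts of Eif2s3y, and with replicate 2 as the only HFpEF library the log2 fold change was -3.98, adjusted p = 0.0107. The markers of smooth muscle and pericytes (956, 991 and 946 CPM to 1296, 1023 and 1064 CPM) rose without overlap. So did the Schwann and nerve markers (40.2, 25.6 and 24.9 CPM to 359, 40.6 and 65.4 CPM). The part of these lists in the fall of Tnni1 was not tested.

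Tnni1 also fell in control 9w against control 5w (log2 fold change -1.93 ± 0.46 (SE), adjusted p = 0.00604), a call that every left-out library kept as well. It was lost without control 5w replicates 2 and 3 together (log2 fold change -1.83), which left only control 5w replicate 1 in that group. Since the filter of at least 10 counts in every library removes Tnni1, neither of its falls against control 5w could be called under it.

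In untreated hearts at week 9 Tnni1 measured 0.528, 0.244 and 0.316 CPM against 1.69, 0.861 and 2.09 CPM in control 9w, without overlap. The difference missed the threshold in edgeR (log2 fold change -2.10 ± 0.56 (SE), adjusted p = 0.0663). It passed in DESeq2 (adjusted p = 0.0177), in voom (adjusted p = 0.00165) and without HFpEF replicate 1 (adjusted p = 0.046). Without the libraries rich in atrial markers it was -1.01, with only control 9w replicate 2 left in that group. Tnni1 rose in EMPA + PFD, at 1.30, 2.51 and 1.04 CPM, against untreated hearts (log2 fold change 2.14 ± 0.56 (SE), adjusted p = 0.0286), where all 3 libraries were above all untreated ones. This call was lost without untreated replicate 2 (log2 fold change 1.90, adjusted p = 0.131), untreated replicate 3 (2.08, adjusted p = 0.0734) or EMPA + PFD replicate 2 (1.70, adjusted p = 0.137), and without the libraries rich in atrial markers (1.90, adjusted p = 0.152). In a fit on these 2 groups alone, as with at least 10 counts in every library, Tnni1 did not pass the filter on low counts and could not be called. Eif2s3y counts separated these groups completely, and so did the ventricular markers, higher in EMPA + PFD (36763, 40704 and 32310 CPM against 31357, 9933 and 29763 CPM), and the endothelial markers, lower there (1587, 1435 and 1537 CPM against 2300, 2663 and 2483 CPM). The markers of fast skeletal muscle (33.9, 21.9 and 31.5 CPM against 37.3, 74.1 and 44.9 CPM) and of smooth muscle and pericytes (984, 773 and 787 CPM against 1129, 1072 and 1253 CPM) were also lower there in every library. The part of these lists in the rise was not tested.

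Tnni1 was 1.33 and 1.58 CPM in EMPA and 2.08 and 0.823 CPM in PFD, also above every untreated library. Neither difference was called for EMPA (log2 fold change 2.00 ± 0.62 (SE), adjusted p = 0.337) or for PFD (log2 fold change 1.99 ± 0.61 (SE), adjusted p = 0.786), although both log2 fold changes were close to that of the combination. The PFD value ran from 1.18 to 2.50 over left-out libraries. The PFD and untreated libraries all had 0 counts of Eif2s3y. Whether the combination differed from either drug alone was not tested.

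Tnni3 measured 6436, 2194 and 2699 CPM in control 5w and 964, 2856 and 3215 CPM in HFpEF. The groups overlapped, with control 5w replicate 1 highest and HFpEF replicate 1 lowest, and the difference was not called (log2 fold change -0.69 ± 0.47 (SE), adjusted p = 0.31), with the opposite sign in voom (0.0919) and values from -0.98 to -0.0535 over left-out libraries. At week 9 it measured 4560, 5650 and 4017 CPM in control 9w, 5555, 2015 and 4868 CPM in untreated hearts and 6428, 6450 and 5556 CPM in EMPA + PFD. Tnni3 went with the sum of the ventricular markers (r = 0.903, rho = 0.886), and untreated replicate 2 was again low. Its group means ran from 6145 ± 510 CPM (SD, n = 3) in EMPA + PFD through PFD, control 9w, EMPA, untreated and control 5w to 2345 ± 1210 CPM (SD, n = 3) in HFpEF, with no neighbours further apart than the sum of their SDs.

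Per 1000 counts of Tnni3, Tnni1 had 0.864, 2.62 and 2.48 counts in control 5w and 1.34, 0.128 and 0.167 in HFpEF. HFpEF replicate 1 lay within the control range and the other HFpEF libraries far below it. At week 9 the values were 0.371, 0.152 and 0.521 in control 9w and 0.0950, 0.121 and 0.0649 in untreated hearts, with all untreated libraries below all controls. The log2 ratio in disease minus control was -2.44 at week 5 and -1.63 at week 9, a mean of -2.04.

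The exact permutation test of the Tnni1 to Tnni3 ratio gave p = 0.02 over 400 relabellings, where 0.005 is the smallest possible, and 0.06 after adjustment over 3 ratios, which does not pass. The adjusted p was 0.045 with no pseudocount and 0.105 with a pseudocount of 5. Leaving out single libraries moved it between 0.015 and 0.135, and it passed without HFpEF replicate 1 or control 9w replicate 2. The drug groups had 0.246 and 0.421 in EMPA, 0.400 and 0.135 in PFD and 0.202, 0.389 and 0.188 in EMPA + PFD, all above the untreated libraries.

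By group mean, Tnni1 ran from control 5w (5.99 ± 0.604 CPM, SD, n = 3) through EMPA + PFD, control 9w, EMPA, PFD and HFpEF to untreated hearts (0.362 ± 0.148 CPM, SD, n = 3). Control 5w differed from the next group by more than the sum of the SDs, and no other neighbours did.

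Ankrd1 encodes a stretch-responsive ankyrin repeat protein of the sarcomere and nucleus, and Xirp2 an actin-binding protein of the intercalated disc. Ankrd1 measured 3545, 5716 and 5742 CPM in control 5w, 3340, 1124 and 4897 CPM in HFpEF, 2286, 2247 and 4170 CPM in control 9w and 3836, 1755 and 5667 CPM in untreated hearts. These groups overlapped, and Ankrd1 was not called in any of the 8 comparisons by edgeR over all libraries, while voom called it in control 9w minus control 5w and in untreated minus control 9w. At week 5 its log2 fold change was -0.68 (adjusted p = 0.343), from -1.16 to -0.28 over left-out libraries. The treated hearts measured 4638 and 7587 CPM in EMPA, 6892 and 4381 CPM in PFD and 6501, 5022 and 3931 CPM in EMPA + PFD, with EMPA replicate 2, PFD replicate 1 and EMPA + PFD replicate 1 above every library of the other groups and the rest within their range.

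Xirp2 measured 416, 2535 and 2519 CPM in control 5w and 186, 201 and 379 CPM in control 9w. Control 5w replicate 1 was far below replicates 2 and 3, the libraries rich in fibroblast markers, but still above every control 9w library. Xirp2 fell in control 9w (log2 fold change -2.84 ± 0.86 (SE), adjusted p = 0.02). The call was lost without control 5w replicate 2 (log2 fold change -2.52, adjusted p = 0.0592) or 3 (-2.53, adjusted p = 0.0577), or control 9w replicate 1 (-2.65, adjusted p = 0.0742) or 2 (-2.69, adjusted p = 0.0782). Without both control 5w replicates 2 and 3 the log2 fold change was -0.71, not called, with only control 5w replicate 1 left in that group. Without the libraries rich in atrial markers it was -3.18, also not called, with only control 9w replicate 2 left.

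In HFpEF, Xirp2 measured 1552, 197 and 1359 CPM, overlapping control 5w (log2 fold change -0.82 ± 0.81 (SE), adjusted p = 0.489). Against control 5w replicate 1 alone the sign was opposite (1.30, adjusted p = 0.431), and over single left-out libraries the value ran from -1.29 to -0.32. Untreated hearts measured 450, 164 and 986 CPM, on both sides of the control 9w libraries (log2 fold change 1.06 ± 0.81 (SE), adjusted p = 0.522), and voom called this difference (1.94, adjusted p = 0.00186), while over left-out libraries the edgeR value ran from 0.26 to 1.49. The treated hearts measured 778 and 3334 CPM in EMPA, 1437 and 706 CPM in PFD and 806, 1117 and 663 CPM in EMPA + PFD. EMPA replicate 2 was the highest of the 19 libraries, and EMPA minus untreated was not called (log2 fold change 1.95 ± 0.89 (SE), adjusted p = 0.557), with values from 0.55 to 2.75 over left-out libraries. That library also had the highest sum of the smooth muscle and pericyte markers (1928 CPM), and their part in its Xirp2 level was not tested. Every EMPA + PFD library was above every control 9w library, without a call in edgeR (log2 fold change 1.76 ± 0.82 (SE), adjusted p = 0.113) but called by voom (adjusted p = 0.00196) and in the fit on those groups alone (adjusted p = 0.00403).

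By group mean, Ankrd1 ran from EMPA (6113 ± 2085 CPM, SD, n = 2) through PFD, EMPA + PFD, control 5w, untreated and HFpEF to control 9w (2901 ± 1099 CPM, SD, n = 3), and Xirp2 ran from EMPA (2056 ± 1807 CPM, SD, n = 2) through control 5w, PFD, HFpEF, EMPA + PFD and untreated to control 9w (255 ± 107 CPM, SD, n = 3). In neither order did neighbours differ by more than the sum of their SDs. Their log2 levels went together over the 19 libraries (Pearson r = 0.84, Spearman rho = 0.81), also after group means were taken out (r = 0.90).

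Other genes were compared by how closely their log2 CPM followed each member over the 19 libraries, with Pearson r and Spearman rho (n = 19) as a description of libraries that share groups and tissue makeup. Nppb was followed most closely by Anxa5 (r = 0.883, rho = 0.9), Traip (r = 0.834, rho = 0.849) and Hspb1 (r = 0.811, rho = 0.786). The closest to Myh6 were Ppt2 (r = 0.906, rho = 0.832), Slc2a4 (r = 0.904, rho = 0.851), the insulin-responsive glucose transporter, and Ptprk (r = 0.892, rho = 0.774). For Myh7 they were Gpc1 (r = 0.884, rho = 0.853), Plb1 (r = 0.883, rho = 0.851) and Trim72 (r = 0.883, rho = 0.879). Between Myh6 and Myh7 themselves the values were near 0 (r = 0.0919, rho = -0.0175).

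Acta1 was closest to Nifk (r = 0.867, rho = 0.846), Arpp19 (r = 0.865, rho = 0.872) and Rala (r = 0.864, rho = 0.816). Actc1 was closest to Kpna2 (r = 0.982, rho = 0.958), Pdhx (r = 0.977, rho = 0.967) and Casq2 (r = 0.971, rho = 0.97), the last of them a calcium-binding protein of the sarcoplasmic reticulum. Tnni1 was closest to Igf2bp3 (r = 0.863, rho = 0.809), Msrb1 (r = 0.857, rho = 0.732) and Tmem184c (r = 0.839, rho = 0.712), and for Igf2bp3 the Pearson value within groups was only 0.139. Tnni3 was closest to Ndufs7 (r = 0.991, rho = 0.977), Ndufa4 (r = 0.979, rho = 0.914) and Slc25a4 (r = 0.979, rho = 0.935), genes of the mitochondrial inner membrane. Ankrd1 was closest to Hspb3 (r = 0.922, rho = 0.907), Pacsin3 (r = 0.903, rho = 0.779) and Csrp3 (r = 0.889, rho = 0.839), and Xirp2 to Synpo2l (r = 0.949, rho = 0.928), Ncam1 (r = 0.945, rho = 0.944) and Ankrd23 (r = 0.906, rho = 0.882).

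Further genes of the same biology were taken from 4 lists, and the share of all genes called stands beside their counts, a share that moved with left-out libraries as given above. The same libraries, and so the same differences in marker sums, underlie these counts, and the part of the markers was not tested. In brackets after a gene stand its log2 fold change, the number of the 19 libraries, left out 1 at a time, without which its call was lost, and the number of the 8 to 10 other settings under which its call was lost or its sign changed. Of 23 other fetal and load-responsive genes tested, 2 fell in HFpEF against control 5w, beside 8.69% of all genes, with a list median of -1.09 against 0.02. These were Atp2a2 (-1.70, 3, 3), the calcium pump of the sarcoplasmic reticulum, and Fhl2 (-1.63, 12, 4). In control 9w against control 5w 4 fell, beside 14.7% of all genes, among them Synpo2l (-2.55, 0, 2), Des (-2.51, 0, 1) and Fhl1 (-1.19, 4, 2).

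In EMPA + PFD against untreated hearts 1 gene of this list fell, beside 3.82% of all genes, Myl4 (-7.00, 15, 5), the atrial light chain, which was -0.14 without the libraries rich in atrial markers. Against control 9w, beside 12.1% of all genes, 6 were higher in EMPA + PFD, including Des (2.07, 0, 0), Fhl2 (1.95, 1, 1) and Nrap (1.72, 3, 0), and 2 were lower, Myl7 (-7.23, 2, 1) and Myl4 (-7.08, 4, 1). The latter pair had values of 0.20 and 0.49 without the libraries rich in atrial markers.

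Of 22 cardiac transcription factors tested, 6 fell in HFpEF, beside 8.69% of all genes, including Tbx5 (-2.14, 12, 3), Tbx20 (-1.73, 5, 2) and Tead1 (-1.49, 0, 0). In control 9w against control 5w 3 fell, beside 14.7%, Tbx20 (-1.46, 9, 2), Gata4 (-1.06, 3, 0) and Tead1 (-1.06, 1, 0). In EMPA + PFD 2 rose against untreated hearts, beside 3.82%, Tbx20 (1.75, 13, 5) and Tead1 (1.04, 3, 3), and 5 rose against control 9w, beside 12.1%, including Tbx20 (2.07, 1, 0), Myocd (1.63, 0, 0) and Sox6 (1.25, 3, 1). Gata4, Tbx5, Tbx20 and Myocd encode factors of the cardiac regulatory program, and Tead1 the factor that binds the M-CAT element.

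Of 8 genes for natriuretic peptide processing and receptors, 1 fell in HFpEF, beside 8.69% of all genes, Corin (-2.07, 3, 2), the protease that activates natriuretic peptide precursors. The receptors Npr1 (1.40, 0, 0) and Npr3 (3.12, 4, 3) were the 2 that were higher in control 9w than in control 5w, beside 14.7%, but Npr3 was -1.72 without the libraries rich in atrial markers. In EMPA + PFD against untreated hearts 1 rose, the cGMP-dependent kinase Prkg1 (1.35, 4, 2), beside 3.82%. Against control 9w, beside 12.1%, 1 rose, Prkg1 (2.00, 0, 0), and 1 fell, Npr1 (-1.60, 0, 0).

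Of 22 hypertrophic signalling genes, 2 fell in HFpEF, beside 8.69% of all genes, the alpha-adrenergic receptor Adra1a (-3.31, 0, 0) and the kinase Camk2d (-1.21, 0, 1). In each of the next comparisons 1 was called, Adra1a (-1.85, 0, 0) in control 9w against control 5w, beside 14.7%, Adra1a (1.27, 14, 6) in EMPA + PFD against untreated hearts, beside 3.82%, and Adra1a (1.68, 0, 0) in EMPA + PFD against control 9w, beside 12.1%. The EMPA + PFD value against untreated hearts had an adjusted p of 0.0488 and ran from 0.89 to 1.70 over left-out libraries. Over the 4 lists together, 75 genes, edgeR called 0 for untreated minus control 9w, with 17 at an unadjusted p under 0.05, beside 18.2% of all genes, 0 called by DESeq2, beside 2.4%, and 15 by voom, beside 8.37%. It also called 0 for untreated minus HFpEF, with 25, 8 and 7, beside 22.7%, 3.56% and 8.69% of all genes in the same order, for EMPA minus untreated (9, 1 and 0, beside 8.63%, 0.412% and 0.194%) and for PFD minus untreated (4, 0 and 0, beside 5.21%, 0.0323% and 0.0404%).

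Myosin genes carry microRNAs in their introns, and their sequences are shown because the seed, bases 2 to 8 in capitals, is the same in the microRNAs of the alpha and beta chain genes. In RefSeq's GRCr8 table, miR-208a-3p lies within Myh6 (chr15:32395568-32395585, minus strand), miR-208b-3p within Myh7 (chr15:32421648-32421665, minus strand) and miR-499-5p within Myh7b (chr3:164570616-164570636, plus strand).
miR-208a-3p: aUAAGACGagcaaaaagc
miR-208b-3p: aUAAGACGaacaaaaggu
miR-499-5p: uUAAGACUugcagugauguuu
The libraries do not measure mature microRNAs. The files hold 0 counts for Mir208a in every library and at most 2 for Mir499a, but 3 to 85 counts for Mir208b. The Mir208b row was examined after its values were seen, and its log2 level went with Myh6 (r = 0.805, rho = 0.677), while the values for its host Myh7 were r = -0.187, rho = -0.382. Its reads cannot be told apart from unspliced or antisense transcripts across Myh7, since strand was not given in the sources used here.

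Promoter sequences are shown for the 2 actins, which were among the 4 genes called lower in control 9w than in control 5w. The table of RefSeq promoters (GRCr8, 250 bases before to 50 after the start) held 8 of the 9 members. The motifs searched on both strands were the muscle element of the TEAD factors, called M-CAT here, with the letters CATTCC, the start-site element TATAAA, the element of the Gata factors AGATAA, the E-box CACGTG, and the CArG box of serum response factor, which is 2 C, then 6 letters that are A or T, then 2 G. Capitals mark every match. Acta1 (chr19:68784145-68784444, minus strand) held a CArG box, an M-CAT and a start-site match, and Actc1 (chr3:121271778-121272077, minus strand) a CArG box. The CArG box began at base 157 of the window in Acta1, before the annotated start, and at base 253 in Actc1, after it.
Acta1: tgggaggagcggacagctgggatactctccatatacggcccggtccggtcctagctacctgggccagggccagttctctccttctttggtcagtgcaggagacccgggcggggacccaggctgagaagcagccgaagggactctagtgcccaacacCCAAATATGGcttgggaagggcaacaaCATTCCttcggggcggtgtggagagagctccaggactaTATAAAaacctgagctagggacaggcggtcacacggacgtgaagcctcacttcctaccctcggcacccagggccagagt
Actc1: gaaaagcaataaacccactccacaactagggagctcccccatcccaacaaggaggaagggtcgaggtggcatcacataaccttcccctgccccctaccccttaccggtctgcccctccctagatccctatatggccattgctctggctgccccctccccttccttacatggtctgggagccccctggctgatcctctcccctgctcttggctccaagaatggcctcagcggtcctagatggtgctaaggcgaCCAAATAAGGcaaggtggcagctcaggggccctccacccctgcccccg
The CArG box was present in 2 of the 8 members, the actins shown, and in 1.64% of all 33469 promoters of the same length. Tnni1 and Xirp2, which were also called lower in control 9w, held no match of any of these motifs. M-CAT was present in 3 of 8 (Nppb, Myh6 and Acta1) beside 14.2%, the start-site element in 2 of 8 beside 14.2%, the Gata element in 2 of 8 beside 11.6% and the E-box in 0 of 8 beside 6.42%. A match is a description of the letters and not of binding.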

How the data were processed

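Total RNA of rat hearts was sequenced, and the authors deposited whole-number read counts per gene for each library. The submitters' processing notes name Trim Galore, FastQC, HISAT2, HTSeq, DESeq2 and build rn6, and the counting mode and strand are not given in the sources used here. The counts were analysed with edgeR 4.0.16 in R 4.3.3, with TMM scaling, filterByExpr, 1 quasi-likelihood model of the 7 groups over 19 libraries and Benjamini-Hochberg adjustment over 12388 genes. Standard errors were taken from the fold change and its F statistic. DESeq2 1.42.0, limma 3.58.1 (voom), other scalings and filters, a replicate block, and leaving out libraries were alternatives. Ratios used a pseudocount of 0.5 and exact two-sided permutation tests within weeks. P-values measure the spread between libraries, which the study gives as separate hearts. CPM floors of 3 counts were 0.215 to 0.400 CPM and cover counting error only. Members and lists were chosen with earlier results of these data known, and the uncalled fold changes printed were picked after their values were seen. Named list genes were those called, at most 3 per list and direction. The code was tested on simulated counts.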

Additional observations from a re-analysis of the deposited data

Results flagged for a closer look

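The effect of disease differed between week 5 and week 9, by the edgeR test of the difference itself, for Actc1 among the 9 genes beside 12% of all genes (7.87% without control 9w replicate 2, 7.08% without untreated replicate 1, 18.2% without untreated replicate 2), and for 12 of the 75 genes of the other lists, of which the 3 largest per list and direction are named. These shares are 11.1%, no higher than that of all genes, and 16%, within the range of that of all genes over left-out libraries (7.08% to 18.2%). For Actc1 the week 9 minus week 5 difference in log2 fold change was 2.65. In the lists it was 3.72 for Adra1a, 2.58 for Fhl2, 2.50 for Des, 2.14 for Rcan1, 1.86 for Myocd, 1.73 for Nkx2-5, 1.66 for Gata4 and -1.61 for Npr1. Control 9w replicates 1 and 3 and untreated replicate 2 were rich in atrial markers, control 5w replicates 2 and 3 were rich in fibroblast markers, and the ventricular markers, which Actc1 followed (r = 0.851, rho = 0.83), summed to 7698, 13462 and 19902 CPM in HFpEF, 36044, 17797 and 20073 CPM in control 5w, 31357, 9933 and 29763 CPM in untreated hearts and 19869, 25105 and 19283 CPM in control 9w. The part of the ventricular markers in these differences was not tested. Eif2s3y counts were 0 in every untreated library and in HFpEF replicates 1 and 3, but not in HFpEF replicate 2 or the controls. What they reflect cannot be told apart from disease at week 9, and its part was not tested either. Without the libraries rich in atrial markers the Actc1 difference was 3.17, with only control 9w replicate 2 left in its group. Without those rich in fibroblast markers it was 3.23, with only control 5w replicate 1 left, and the calls of Des (1.97) and Rcan1 (2.16) were lost. The Fhl2 call was lost with a replicate block (2.46, adjusted p = 0.0538) and without the HFpEF libraries lacking Eif2s3y (2.62, with only HFpEF replicate 2 left). With 1 library left out at a time, the call was lost for Actc1 without 7 of the 19 libraries, for Fhl2 without 7, for Des without 7, for Nkx2-5 without 6 and for Rcan1 without 5, and for Adra1a, Myocd, Gata4 and Npr1 without 0.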

How the results depend on the processing

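Under settings other than single left-out libraries, 314 of 342 comparisons of a member's log2 fold change with its reported value kept direction and side of the threshold, 9 lost and 15 gained a call, and 4 changed sign. For the named list genes, 339 of 393 kept both, 51 lost their call and 3 changed sign. Of 37 member values, 26 kept both under every left-out library, as did 16 of 41 values of list genes. In the edgeR fits a library left alone in its group was assumed to vary like the other groups.

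Sign changed for Tnni3 in HFpEF minus control 5w (0.0919) and Myh7 in EMPA + PFD minus untreated (-0.0831) with voom, for Acta1 in untreated minus HFpEF without the HFpEF libraries lacking Eif2s3y (0.32), and for Nppb in EMPA minus untreated without EMPA replicate 2 (-0.0937), where the value without EMPA replicate 1 was 1.32. Without the libraries rich in atrial markers, Npr3 in control 9w minus control 5w was -1.72, and Myl7 and Myl4 in EMPA + PFD minus control 9w were 0.20 and 0.49. Without those rich in fibroblast markers, Xirp2 in HFpEF minus control 5w was 1.30 and the Myh7 to Myh6 log2 ratio 0.38. These 2 sets of libraries were chosen after seeing the data. The causes were not tested.

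The number of the 9 genes called changed as follows. With voom it was 7 for control 9w minus control 5w (beside 21.9% of all genes), 4 for untreated minus control 9w (8.37%), 1 for untreated minus HFpEF (8.69%), 4 for EMPA + PFD minus control 9w (15.8%) and 5 for the difference between weeks (20.7%), and these shares of all genes were above those of edgeR in each. DESeq2 called 3 for HFpEF minus control 5w (beside 10.3%), 1 for untreated minus control 9w (2.4%), 2 for EMPA + PFD minus untreated (5.76%) and 2 for EMPA + PFD minus control 9w (13.1%). With no filter EMPA + PFD minus control 9w gave 0, beside 9.59% of all genes. With at least 10 counts in every library, which removes Tnni1, HFpEF minus control 5w gave 1 (beside 8.08%). Under that filter control 9w minus control 5w gave 3 (13.1%) and EMPA + PFD minus untreated 0 (4.04%). Fits on only the groups compared gave 1 for HFpEF minus control 5w (beside 3.87% of all genes) and 5 for control 9w minus control 5w (14.4%). They gave 0 for EMPA + PFD minus untreated (0.0435%) and 3 for EMPA + PFD minus control 9w (14.1%). Tnni1 did not pass the filter in those of EMPA + PFD minus untreated, PFD minus untreated and untreated minus control 9w. Leaving out the HFpEF libraries lacking Eif2s3y, or the libraries rich in atrial or in fibroblast markers, left 1 library in a group. No counts are given for these settings, and calls lost there are given with each gene.

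With 1 library left out, the count ran from 1 to 3 for HFpEF minus control 5w, from 2 to 4 for control 9w minus control 5w, from 0 to 1 for untreated minus control 9w, untreated minus HFpEF, EMPA + PFD minus untreated and the difference between weeks, and from 0 to 2 for EMPA + PFD minus control 9w. The share of all genes called ran from 5.9% to 9.95% for HFpEF minus control 5w. For control 9w minus control 5w it ran from 9.79% to 16.4%. It ran from 0.0565% to 3.33% for untreated minus control 9w and from 0.0323% to 7.52% for untreated minus HFpEF. For EMPA + PFD it ran from 0.476% to 7.35% against untreated hearts and from 7.85% to 12.7% against control 9w. For the difference between weeks it ran from 7.08% to 18.2%. The log2 ratio of Myh7 to Myh6 ran from -0.97 to 0.0714, above 0 only without HFpEF replicate 2, that of Tnni1 to Tnni3 from -2.55 to -1.74 and that of Acta1 to Actc1 from -0.69 to -0.21. The Tnni1 to Tnni3 value passed the threshold with no pseudocount (-2.15). Without the HFpEF libraries lacking Eif2s3y it was -2.63, given as a value because 1 HFpEF library was left.

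Replicate numbers were not taken to pair the libraries. Correlations of same-numbered deviations ran from -0.53 to -0.17 for HFpEF minus control 5w and from -0.45 to -0.0792 for untreated minus control 9w, were of both signs for control 9w minus control 5w (-0.25 to 0.23) and untreated minus HFpEF (-0.40 to 0.35), and were negative for EMPA + PFD minus untreated (-0.24 to -0.0626) and PFD minus untreated (-0.21 to -0.0758). They were above 0 for EMPA minus untreated (0.24 and 0.29, 2 pairs) and EMPA + PFD minus control 9w (0.0491 to 0.0888). With a replicate block, 3 of the 9 genes were called for HFpEF minus control 5w, with Acta1 added, beside 7.52% of all genes. The count was 4 for control 9w minus control 5w (beside 13.6%) and 1 for EMPA + PFD minus untreated (beside 3.07%). The paired log2 ratio of Tnni1 to Tnni3 was -2.04 (exact sign-flip test over 6 pairs, adjusted p = 0.281, where 3 times the smallest possible p is 0.0938). At 3 to 84 counts, depth limits Tnni1 most.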
